A study of Mus musculus with 2 samples.

Results

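Collagens are the main structural proteins of the extracellular matrix. A collagen molecule is built from 3 chains, alike or different, whose Gly-X-Y repeats, with glycine at the first place and often proline at the others, wind around each other. Each chain has its own gene, and the chains are grouped by what they assemble into: fibrils of connective tissue, the meshwork of basement membranes, beaded filaments, molecules that sit on fibril surfaces, or proteins anchored in the cell membrane. In the early embryo the epiblast rests on a basement membrane that contains type IV collagen, while fibrillar collagens are best known from mesenchymal cells such as fibroblasts.

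The collagen chain genes described here were chosen by name, as all genes on the array called Col followed by a number, the letter a and a number. They comprise 40 genes, read by 59 probes on 68 spots, among 17434 protein-coding gene symbols and 39429 probes on the array. The study profiled mouse epiblast stem cells (EpiSC), a cell type that resembles the epiblast after implantation, with Agilent 1-colour arrays. There were 2 groups of 1 array each, EpiSC clone 2 and EpiSC clone 1. Both clones were wildtype, female, of C57BL/6 background and at passage 9, so strain, sex and passage do not separate them. The cells were collected with trypsin, with no other treatment given, and all samples analysed here are EpiSC. With 1 array per clone no test between clones was possible, and each difference (clone 2 minus clone 1, log2) has no replicate check. Type VI chains other than Col6a1, Col6a2 and Col6a6 were not analysed here.

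Signals are given as log2 of the processed intensity, after setting each array's 75th percentile (726 units in clone 2 and 819 units in clone 1) to 0. A probe was called detected when it was well above background by the scanner software's flag, and a gene when any of its usable probes was. The lowest signal of a detected probe was -4.55 in clone 2 and -4.54 in clone 1. All 6 epiblast markers listed for the check of the label were detected on both arrays, Pou5f1 at 2.51 in clone 2 and 2.87 in clone 1. Their differences ranged from -0.35 (Pou5f1) to 0.43 (Otx2) around a median of 0.05, with 3 higher and 3 lower in clone 2. All 10 fibroblast markers were also detected on both, with signals from -0.71 to 5.00 in clone 2 and from -0.71 to 4.76 in clone 1. Their summed level was 6.45 in clone 2 and 6.28 in clone 1 on the log2 scale. Since RNA was taken from whole cultures, fewer cells of a type and less RNA per cell cannot be told apart. Of the 7 markers of parietal and visceral endoderm, which secretes basement membrane, 3 were detected on both arrays. These were Thbd, Pdgfra, which is also counted among the fibroblast markers, and Sox7. Sox7 read -4.02 in clone 2 and -4.08 in clone 1, near the lowest detected signal. Gata6 was detected in clone 2 only (-4.15 in clone 2 and -5.07 in clone 1, at least 1.32-fold higher in clone 2). Gata4, Sox17 and Foxa2 were not detected in either clone. Of 4 endothelial markers 2 (Pecam1 and Kdr) were detected on both arrays, and Cdh5 and Tek on neither. Their summed level was 1.91 in clone 2 and 1.14 in clone 1. Most of it came from the brighter probe of Kdr (1.85 in clone 2 and 1.07 in clone 1), whose other probe differed by 0.15. Of 4 macrophage markers 3 were detected on both, with a summed level of all 4 of 1.63 in clone 2 and 1.43 in clone 1. The largest difference was that of the brightest of 3 Csf1r probes (0.48 in clone 2 and -0.35 in clone 1). The lowest difference among the Csf1r probes was -0.01. Lyz2 differed by -0.24 and Adgre1 (named Emr1 on the array) by 0.06. The fourth, Ptprc, was detected in clone 1 only (-4.58 in clone 2 and -3.93 in clone 1). The part of these other cell types in the collagen signals was not tested.

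What the array reads of each chain is a stretch of 60 bases. The probes with glycine codons spaced as in a Gly-X-Y repeat are shown because this spacing is the mark of the family. The search was for glycine codons (GGN) in an open reading frame, spaced 9 bases or a multiple of 9 apart, and no protein annotation was used. At least 4 such codons were found in 5 of 59 collagen probes (8.47%) and in 0.175% of the other 39370 probes. In the Col13a1 probe the last counted codon stands apart from the others, with other codons at the repeat positions between, so that only the first part of this probe holds an unbroken repeat. The Col14a1 probe holds more glycine codons before the counted ones, in the same frame and 9 bases apart. They are out of step with the counted ones and were not counted. The counted glycine codons are in capitals, in sense orientation from 5′ to 3′.
Col25a1: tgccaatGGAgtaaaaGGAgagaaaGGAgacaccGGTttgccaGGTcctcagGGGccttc
Col16a1: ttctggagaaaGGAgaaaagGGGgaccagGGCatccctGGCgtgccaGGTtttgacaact
Col15a1: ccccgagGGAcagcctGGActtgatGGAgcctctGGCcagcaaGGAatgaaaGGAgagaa
Col14a1: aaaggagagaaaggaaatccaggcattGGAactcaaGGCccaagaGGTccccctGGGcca
Col13a1: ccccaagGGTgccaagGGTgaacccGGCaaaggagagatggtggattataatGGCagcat

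Per the file headers, these probes lie on mm9 at chr3:130270497-130270556 (Col25a1, plus strand), chr4:129756457-129756516 (Col16a1, plus), chr4:47283786-47283845 (Col15a1, plus), chr15:55347733-55347792 (Col14a1, plus) and chr10:61330216-61330585 (Col13a1, minus). The last interval is longer than the probe, whose bases are therefore not contiguous in the genome. The Col14a1 probe was detected in both clones, the Col25a1 probe in clone 2 only, the Col16a1 probe in clone 1 only, and the other two in neither. Which exon or untranslated region the remaining 54 probes read was not analysed here.

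Of the 39 collagen genes with a usable probe, 21 (53.8%) were detected on both arrays, against 65.0% of all protein-coding genes with a usable probe. A further 4 genes (10.3%) were detected in clone 2 only, against 2.45% of all genes, and 1 gene (2.56%) in clone 1 only, against 2.22%. The remaining 13 were detected in neither clone. By the software's more lenient positive and significant flag, 31 collagen genes were called on both arrays, against 82.5% of all genes. By that flag 0 collagen genes were called in clone 2 only, against 3.17% of all genes, and 2 in clone 1 only, against 2.45%, so that the larger number in clone 2 was not kept. By probe, 25 of 58 usable collagen probes were detected on both arrays, where 54.7% of all probes were. No p-value is attached to these shares, since the genes were listed with earlier results of these arrays in view.

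**Figure D1:**
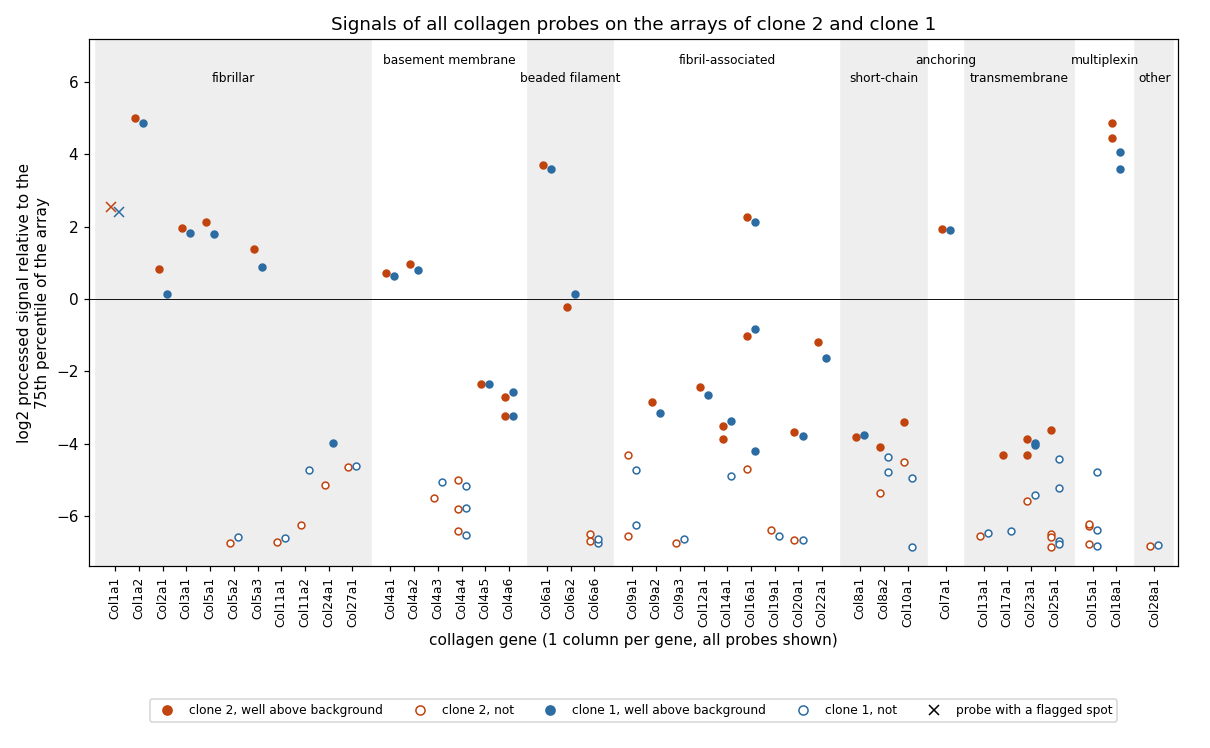
Scaled log2 signal (vertical axis, 75th percentile of each array at 0) for every probe of the 40 collagen genes, grouped by class, with clone 2 at the left and clone 1 at the right of each gene. Filled points are well above background, open points are not, and crosses mark the probe whose clone 2 spot was flagged; the probe of Col10a1 at base 4901 is filled at -3.40 in clone 2 and open at -6.85 in clone 1.

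Fibrillar chains, which form the striated fibrils of connective tissue, were divided between 5 genes detected on both arrays, 1 in clone 1 only and 4 in neither, plus Col1a1, which had no usable probe. Col1a2, the α2 chain of type I collagen, read 5.01 in clone 2 and 4.88 in clone 1. Its partner chain gene Col1a1 is read by 1 probe (chr11:94813115-94813174 in mm9), whose spot on the clone 2 array was flagged as non-uniform. The flagged spot read 2.55 in clone 2, against an unflagged 2.40 in clone 1, both far above the lowest detected signal. Col1a1 is therefore left out of the counts, although both spots were bright.

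Col3a1, whose product mixes with type I collagen in soft tissues, read 1.97 in clone 2 and 1.82 in clone 1. Col5a1, a chain of the type V collagen that nucleates fibrils, read 2.14 in clone 2 and 1.79 in clone 1. Col5a3, an alternative type V chain, read 1.37 in clone 2 and 0.87 in clone 1. By contrast, Col5a2, the usual partner of Col5a1 in type V heterotrimers, read -6.75 in clone 2 and -6.59 in clone 1. Both Col5a2 spots held the software's surrogate value, which replaces a signal that is not distinct from background. On both arrays the type V probes thus detected α1 and α3 but not α2, each gene having 1 probe.

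Col2a1, the chain of cartilage collagen, which is also made in the early embryo, read 0.83 in clone 2 and 0.13 in clone 1. Its difference of 0.70 ± 0.20 (software error) was the largest among the 21 genes by the probe that stands for each gene. Of all measured protein-coding genes, 3.62% were at least as far above clone 1. The cartilage partners of type II collagen were not detected: Col11a1 read -6.73 in clone 2 and -6.61 in clone 1, and Col11a2 read -6.27 in clone 2 and -4.74 in clone 1. Of the 6 chondrocyte and osteoblast markers, Sox9 read -3.86 in clone 2 and -4.07 in clone 1 and Acan read -3.42 in clone 2 and -3.19 in clone 1, near the lower end of detected signals. Matn1, a cartilage matrix protein, read -3.82 in clone 2 and 0.58 in clone 1, which is opposite in direction to Col2a1. Runx2, a transcription factor of bone and cartilage, was detected in clone 1 only, with -4.89 in clone 2 and -3.19 in clone 1. By this probe it was at least 2.56-fold higher in clone 1, and its other probe differed by -0.54. Bglap (named Bglap1 on the array) read -4.13 in clone 2 and -4.12 in clone 1, and Sp7, a bone marker, was not detected.

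Col24a1 was detected in clone 1 only, with -5.15 in clone 2 and -3.99 in clone 1, a fold of at least 1.48 in favour of clone 1. With normexp background correction the bound was -0.39 log2, so that no fold could be given. Col27a1 read -4.66 in clone 2 and -4.62 in clone 1, just under the lowest detected signal of each array. The differences of the 5 fibrillar genes detected on both arrays were all positive, that is towards clone 2, and ranged from 0.13 to 0.70 around a median of 0.34, where 57.0% of all measured genes were higher in clone 2. The sign of Col1a2 turned with normexp background correction (-0.08) and with the authors' deposited values (-0.02), and Col5a1 was at 0.03 with normexp.

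Type IV collagen forms the network of basement membranes from 6 chains, encoded as 3 pairs of neighbouring genes that point away from each other. The pair of the common α1 and α2 chains was detected in both clones. Col4a1, read by a probe at chr8:11199009-11199068 in mm9 that was printed 10 times, averaged 0.72 ± 0.05 in clone 2 and 0.63 ± 0.04 in clone 1 (SD over 9 unflagged spots of the same array). The 9 spots spanned 0.63 to 0.78 in clone 2 and 0.58 to 0.71 in clone 1. The ranges overlapped, and the difference of the means was 0.09 ± 0.02 (SE over spots, which covers error within an array only). This SE ignores that the spots sit at the same positions on both arrays. Position by position, all 9 unflagged spots were higher in clone 2, by 0.04 to 0.12, while the flagged spot differed by -0.07. Before the arrays were scaled, the processed signal of every spot was lower in clone 2. The shared sign therefore rests on the scaling of the whole arrays, and spots of the same array are no replicates of a clone. With normexp background correction the difference of Col4a1 was 0.01. The tenth spot carried an outlier flag on both arrays, with 0.41 in clone 2 and 0.49 in clone 1. Col4a2 read 0.97 in clone 2 and 0.79 in clone 1, a difference of 0.18 ± 0.20 (software error).

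**Figure D2:**
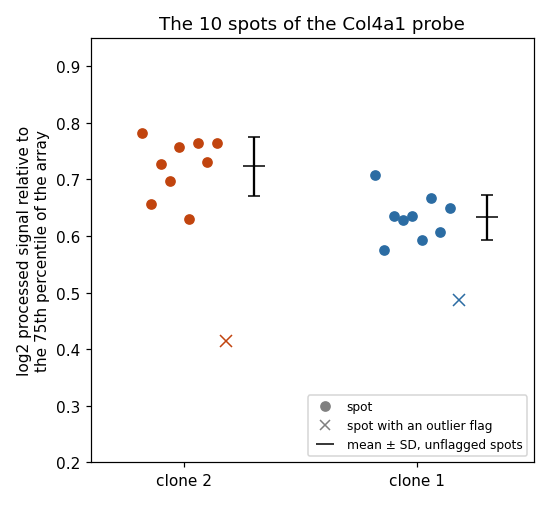
Scaled log2 signal (vertical axis, 75th percentile of each array at 0) for the 10 spots of the Col4a1 probe in clone 2 (left) and clone 1 (right). Circles are single spots, crosses the flagged spot, and the bar gives the mean ± SD of the 9 other spots; the clouds overlap between 0.63 and 0.71.

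The second pair, Col4a3 and Col4a4, whose products occur in kidney and other specialised basement membranes, was not detected. Col4a3 read -5.51 in clone 2 and -5.07 in clone 1, and the 3 probes of Col4a4 lay between -6.42 and -5.00 in clone 2 and between -6.52 and -5.18 in clone 1. The X-linked pair was detected on both arrays. Col4a5 read -2.36 in clone 2 and -2.35 in clone 1. The 2 probes of Col4a6 read -2.70 and -3.24 in clone 2 and -2.59 and -3.23 in clone 1. The 4 detected type IV genes differed between clones by -0.12 to 0.18, with a median of 0.04, beside a median of 0.05 over all 11305 measured protein-coding genes. By RefSeq (GRCm38.p6), the annotated starts of Col4a1 and Col4a2 lie 21 bases apart and those of Col4a5 and Col4a6 lie 1343 bases apart.

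Among the chains of type VI collagen, which forms beaded filaments near cell surfaces, Col6a1 read 3.71 in clone 2 and 3.58 in clone 1. Col6a2, its partner in the same molecule and its neighbour on chromosome 10, read -0.22 in clone 2 and 0.14 in clone 1. The difference of -0.36 ± 0.20 was the lowest of the 21 genes, and 8.25% of all measured genes were at least as far below clone 1. Col6a1 differed by 0.12 ± 0.20, within the software error. Neither probe of Col6a6 was detected.

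The fibril-associated collagens, which attach to fibril surfaces without forming fibrils, had 6 of 9 genes detected on both arrays. Col12a1 read -2.45 in clone 2 and -2.66 in clone 1, Col22a1 read -1.20 in clone 2 and -1.62 in clone 1, and Col9a2 read -2.85 in clone 2 and -3.16 in clone 1. Col9a1 and Col9a3, the other chains of type IX heterotrimers, were not detected, so that type IX was read through α2 alone. For Col9a1 the brighter of 2 probes read -4.33 in clone 2 and -4.74 in clone 1, and Col9a3 read -6.76 in clone 2 and -6.65 in clone 1. Col19a1 was not detected. The median difference of the 6 genes was 0.17, and 5 of them were higher in clone 2, Col14a1 being the exception. With normexp background correction Col14a1 was at 0.52 and Col16a1 at -0.01, so that both changed sign.

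Probes of a single gene differed in their detection calls in this class. Col16a1 has 3 probes. The probe at base 5017 of its transcript read 2.26 in clone 2 and 2.13 in clone 1, the probe at base 5144 read -1.03 in clone 2 and -0.83 in clone 1, and the glycine-repeat probe shown above, at base 3168, read -4.69 in clone 2 and -4.20 in clone 1. The first and second of these were detected on both arrays and differed between clones by 0.13 and -0.20, each within the software error, while the glycine-repeat probe was detected in clone 1 only. Col14a1 read -3.51 in clone 2 and -3.37 in clone 1 by its glycine-repeat probe. Its other probe read -3.88 in clone 2 and -4.90 in clone 1, and was detected in clone 2 only, so that its difference is known only as a bound. Col20a1 was detected on both arrays by the probe at base 3828 (-3.68 in clone 2 and -3.80 in clone 1) and on neither by the probe at base 4013.

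Short-chain collagens form hexagonal networks, such as that under the corneal endothelium or around hypertrophic cartilage cells. Col8a1 read -3.81 in clone 2 and -3.77 in clone 1. Its partner Col8a2 was detected in clone 2 only by the probe at base 4197, with -4.09 in clone 2 and -4.78 in clone 1, at least 1.37-fold higher in clone 2. Its probe at base 2234 was detected on neither array. Col10a1, a marker of hypertrophic cartilage, was the single collagen gene with a bound past 2-fold. Its probe at base 4901 read -3.40 in clone 2 and -6.85 in clone 1, where the spot held a surrogate value, so that Col10a1 was at least 2.21-fold higher in clone 2. Among the 813 protein-coding genes detected on 1 array only, 11.6% had such a bound in favour of clone 2 and 12.8% in favour of clone 1. The other Col10a1 probe, at base 3069, was detected on neither array and read -4.52 in clone 2 and -4.96 in clone 1. These Col10a1 probes are annotated to different transcripts, so their base positions are not on 1 scale. With normexp background correction the bound for Col10a1 was 0.97 log2, under 2-fold.

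Col7a1, the chain of the anchoring fibrils that tie epithelia to the underlying matrix, read 1.95 in clone 2 and 1.92 in clone 1. The difference was 0.03 ± 0.20 (software error). The 5 epithelial markers had a median difference of 1.17, and Krt8 (2.46-fold), Krt18 (2.26-fold) and Cldn7 (3.56-fold) were at least 2-fold higher in clone 2. Of all measured protein-coding genes, 1.42% were. The fold of Krt8 is that of its brighter probe, and its other probe differed by 0.54. Among transmembrane collagens, Col23a1 was detected on both arrays, with -3.88 in clone 2 and -4.05 in clone 1 by its brightest probe. The spot of that probe had an adjacent spot 2-fold higher in clone 2. With such spots left out Col23a1 was at -0.33, and with the mean of all probes at -0.11, so that its sign turned. A second Col23a1 probe, at base 2342, differed by -0.33, and the third was detected on neither array. Col17a1, a hemidesmosome protein of stratified epithelia, read -4.33 in clone 2 and -6.42 in clone 1 and was at least 1.16-fold higher in clone 2. Col25a1, a collagen of neurons, was detected by the glycine-repeat probe alone and on the clone 2 array alone, where it was at least 1.72-fold higher. This probe read -3.63 in clone 2 and -4.42 in clone 1. Its 3 other probes were detected on neither array. Col13a1 read -6.57 in clone 2 and -6.47 in clone 1.

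The multiplexins are collagens of basement membrane zones with long interruptions in the helix. Col18a1, whose C-terminal fragment is known as endostatin, was measured by 2 probes annotated to the same RefSeq transcript, and they disagreed in size. The probe at base 5566 (chr10:76514926-76514985 in mm9) read 4.87 in clone 2 and 3.60 in clone 1, 2.41-fold higher in clone 2. The probe at base 4702 (chr10:76515790-76515849) read 4.45 in clone 2 and 4.07 in clone 1, 1.30-fold higher in clone 2. Both were higher in clone 2 by more than the software error of 0.20, and neither spot had an adjacent spot that was 2-fold apart in the same direction. The probe at base 4702 stands for the gene by a narrowly higher mean signal, so that Col18a1 is not counted past 2-fold. With the mean of both probes the difference was 0.82. The other multiplexin, Col15a1, was detected by none of 3 probes. Of these, the probes at bases 4542 and 4554 overlap in most of their length, and both held surrogate values on at least 1 array. Col28a1 was not detected.

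Across the 21 collagen genes measured on both arrays, none was 2-fold apart by the probe that stands for it, where 1.42% of all measured protein-coding genes passed 2-fold towards clone 2 and 0.893% passed it towards clone 1. With the most different detected probe of each gene, a choice made after the values were seen, the count in clone 2 was 1 (Col18a1), against 1.7% of all genes by the same choice, and in clone 1 it was 0, against 1.09%. With dim genes admitted by the positive and significant flag, 1 collagen gene of 31 passed 2-fold towards clone 2 (Col17a1), against 2.76% of all genes, and 2 towards clone 1 (Col11a2 and Col24a1), against 2.13%. With no filter on dim probes, 1 of 39 passed towards clone 2, against 3.46%, and 3 towards clone 1, against 2.53%. In all, 20 of the 21 genes lay within 1.5-fold, a share near the 91.3% of all measured genes. The median difference was 0.13, beside 0.05 over all measured genes, and 16 of 21 (76.2%) were higher in clone 2, beside 57.0% of all measured genes. The number higher in clone 2 was 14 of 20 with spots beside a 2-fold neighbour left out. It was 15 of 21 with the mean of all probes and 17 of 21 with normexp background correction. Col2a1 was the gene outside 1.5-fold.

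**Figure D3:**
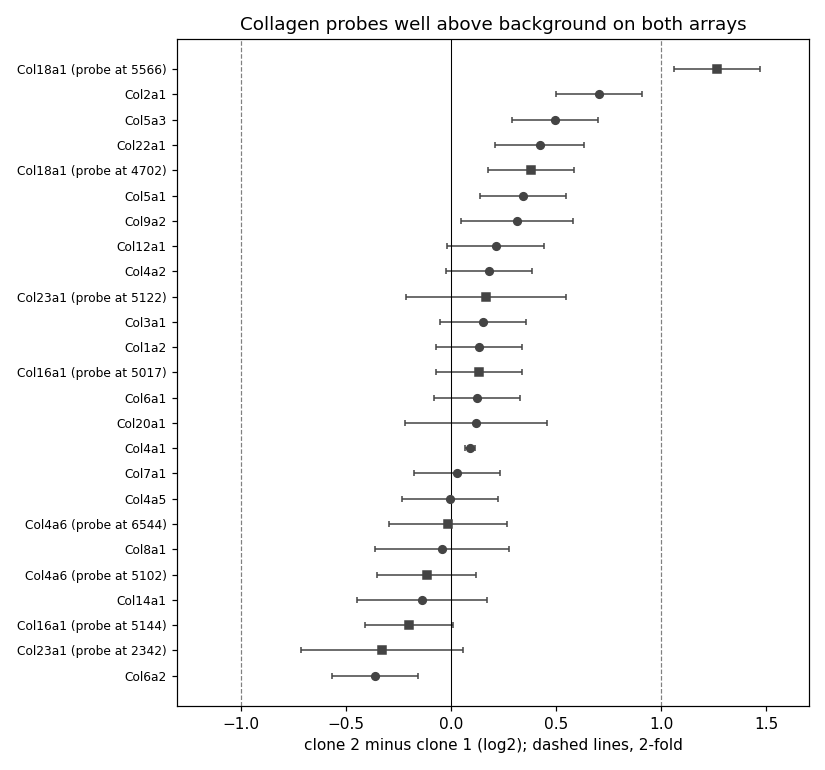
Difference between clones (clone 2 minus clone 1, log2, horizontal axis) for the 25 collagen probes well above background on both arrays, with squares and transcript positions for genes that have 2 such probes. Bars are the software error of the spots, or the SE over 9 spots for Col4a1; the Col18a1 probe at base 5566 is the single one beyond the dashed 2-fold lines, at 1.27.

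The size of these differences can be set against the error within an array. Over 264 detected probes printed 10 times, the median SD of spots was 0.08 in clone 2 and 0.07 in clone 1. For the difference of single spots this gave a noise of 0.11. The software error of a difference comes from an error model, not from repeated spots, and was near 0.20 for bright spots. Of the 20 measured collagen genes read by a single spot per array, 7 differed by more than the software error of the difference (Col2a1, Col5a1, Col5a3, Col6a2, Col9a2, Col22a1 and Col18a1), and 3 by more than 2 such errors (Col2a1, Col5a3 and Col22a1). The other 13 differed by less than that error. Of all measured genes read by a single spot, 42.8% were past 1 error and 15.2% past 2, so these counts do not set the collagen genes apart. Neither error contains the spread between cultures of a clone, which these arrays do not measure. The Col5a3 spot had an adjacent spot 2-fold higher in clone 2, and its difference was 0.31 with normexp background correction, against 0.50. Under the same correction Col8a1, Col14a1 and Col20a1 were at 0.54, 0.52 and 0.55, against -0.04, -0.14 and 0.12.

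For the 13 genes with 2 or more probes, the probes differed in their detection calls for 7 genes, and their differences between clones lay at least 1 log2 apart for 6 (Col4a4, Col8a2, Col10a1, Col14a1, Col15a1 and Col25a1). Over all protein-coding genes with 2 or more usable probes, detection calls differed for 27.1% and differences lay at least 1 log2 apart for 10.6%. In each of these 6, at least 1 of the probes concerned was not detected on 1 of the arrays. Where 2 or more probes of a gene were detected on both arrays, 0 of 4 collagen genes had differences 1 log2 apart, against 2.71% of all such genes, and 4.21% of these had a spread as wide as the 0.88 of Col18a1.

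Collagen chains need dedicated enzymes and chaperones to fold. Of 18 genes for folding and modification, 16 were detected on both arrays, where 65.0% of all protein-coding genes with a usable probe were. The median difference was 0.03 and none was past 2-fold. Of all measured genes, 1.42% passed 2-fold towards clone 2 and 0.893% towards clone 1, so the absence of such genes does not set a short list apart. The same shares apply to the lists that follow. Serpinh1 (Hsp47), the chaperone specific to procollagen, read 3.90 in clone 2 and 3.82 in clone 1. P4hb, a subunit of prolyl 4-hydroxylase, read 2.98 in clone 2 and 2.92 in clone 1, and P4ha1, a catalytic subunit, read -0.56 in clone 2 and -0.38 in clone 1. Plod2, a lysyl hydroxylase, read 0.56 in clone 2 and 0.78 in clone 1. P3h1 (named Lepre1 on the array), a prolyl 3-hydroxylase, had a brighter probe that was 1.72-fold higher in clone 2, while its other probe differed by -0.02. P3h2 and Colgalt2 were the members not detected.

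All 5 secretion genes were detected on both arrays, with a median difference of -0.04. Creb3l1, a transcription factor known to drive type I collagen in bone, was among them. Its signal was -0.35 on the clone 2 array and -1.57 on the clone 1 array, a fold of 2.33 towards clone 2. The difference of Col1a2 was 0.13. A link between Creb3l1 and Col1a2 in these cells was not tested. Of 13 genes for propeptide cleavage and crosslinking, 11 were detected on both arrays, with a median of 0.09. Bmp1, a procollagen C-proteinase, read 2.46 in clone 2 and 2.49 in clone 1. Lox, a crosslinking enzyme, read -2.24 in clone 2 and -2.01 in clone 1. Its relative Loxl4 had a brighter probe that was 6.07-fold higher in clone 2, and its other probe differed by 0.28.

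Collagen receptors were detected on both arrays for 7 of 10 genes, with a median of 0.06. Ddr1, a collagen-binding receptor kinase of epithelia, read 1.79 in clone 2 and 1.14 in clone 1. Itgb1, the β chain of the collagen-binding integrins, read 2.32 in clone 2 and 2.75 in clone 1. Lair1, an inhibitory receptor of leukocytes, had a brighter probe that was 2.44-fold higher in clone 1, while its other probe differed by 0.09. Itga1 passed detection in clone 1 only, where its brighter probe was at least 1.68-fold higher, while its other probe differed by -0.01.

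Partners of type IV collagen in the basement membrane were detected on both arrays in 10 of 10 cases, with a median difference of 0.16 and a range of -0.50 to 0.71. Sparc, a secreted collagen-binding protein, read 6.76 in clone 2 and 6.65 in clone 1, and Lamc1, the common laminin γ chain, read 4.42 in clone 2 and 4.21 in clone 1. No partner gene was 2-fold apart, which does not set so short a list apart from the 1.42% and 0.893% of all measured genes. Fibroblast markers had a median difference of 0.12 and a range of -0.17 to 0.46, so the fibrillar chains, with 0.13 to 0.70, overlapped them.

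**Figure D4:**
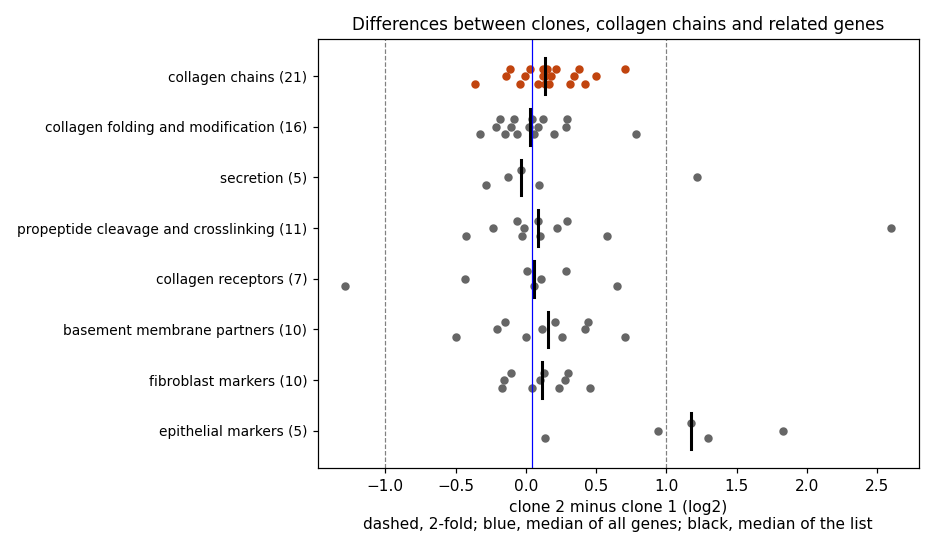
Difference between clones (clone 2 minus clone 1, log2, horizontal axis) for genes measured on both arrays, with the 21 collagen chains on top and related gene lists below, the number of genes in brackets. Points are genes, black bars list medians, the blue line the median of all genes and dashed lines 2-fold; the collagen chains span -0.36 to 0.70 and the epithelial markers 0.13 to 1.83.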

How the data were processed

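Both Agilent arrays (design 026655) carry probe positions on mm9 and were extracted by protocol GE1_1100_Jul11 in Feature Extraction 11.0.1.1, per the file headers. The deposited values used are processed signal intensities, background-subtracted and detrended by that software but not normalized between arrays. A second table deposited by the authors holds normalized intensities by a method not given in the sources used here, and served as an alternative.

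Of 43020 spots that are not controls, 246 in clone 2 and 277 in clone 1 carried an outlier flag and were left out, as were 157 probes with no usable spot on an array. Spots of 1 probe were averaged on the log2 scale, and each array's 75th percentile over usable probes was subtracted. That percentile was 102 times the median of 153 negative control spots in clone 2 and 103 times in clone 1. No depth applies to arrays, and their number limits the precision.

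The probe with the highest mean signal stands for a gene. A gene is measured when that probe is well above background on both arrays. For genes detected on 1 array the fold is a lower bound, with the dim side set to the lowest detected signal of that array or to the probe's own value, whichever is higher. Errors of single spots are those of the software's error model. Background shares are over gene names that are protein-coding symbols in RefSeq (GRCm38.p6).

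Members, classes, lists and tests were chosen with earlier results of these data known. All members may be named. Genes of the 5 companion lists (folding, secretion, crosslinking, receptors, basement membrane partners) are named when 2-fold apart, when they have a bound of at least 2-fold, or as examples set for their list; cell type markers are given by counts and ranges. P3h1, P3h2, Colgalt2, Itga1 and the markers named singly were chosen after their values were seen. Normexp and quantile normalization used limma 3.58.1 in R 4.3.3, and the rest Python 3.11.15.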

Additional observations from a re-analysis of the deposited data

Results flagged for a closer look

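Spots that an outlier flag kept out of the comparisons still carried signal above the negative controls. The Col1a1 spot of clone 2 read 2.55 and was flagged as non-uniform within the spot. With flagged spots kept, Col1a1 differed by 0.15 between clones (clone 2 minus clone 1), close to the 0.13 of Col1a2. The Col4a1 probe had a flagged spot at the same array position in both clones, which read 0.41 in clone 2 and 0.49 in clone 1, below the 9 other spots of either array.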

How the results depend on the processing

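With 1 array per clone no replicate could be left out. No paired analysis was possible because each clone had 1 array and no test was run. The positive and significant flag, which calls dimmer probes, gave 31 of 39 collagen genes on both arrays, where 82.5% of all genes were called. It gave 0 in clone 2 only, against 3.17% of all genes, and 2 in clone 1 only, against 2.45%. It put 1 gene past 2-fold in clone 2 (Col17a1), against 2.76% of all genes. In clone 1 it put 2 (Col11a2 and Col24a1), against 2.13%. With no filter on dim probes these counts were 1 and 3, Col15a1 being added, against 3.46% and 2.53% of all genes. The most different probe of each gene, an alternative chosen after seeing the data, gave 1 gene in clone 2, Col18a1. Normexp background correction moved the median difference to 0.24 and left 0 genes with a bound past 2-fold, while the median of all genes was 0.09; the cause was not tested. Its shifts of single genes ranged from -0.31 to 0.66, and 7 of the 21 genes stayed within the single-spot noise of 0.11. Under the other alternatives, which are quantile normalization, the authors' deposited values, flagged spots kept, the mean of all probes and spots beside a 2-fold neighbour left out, no collagen gene was past 2-fold and the median lay between 0.07 and 0.14. The Col18a1 probe at base 5566 stayed past 2-fold with normexp correction (1.29), quantile normalization (1.13) and the authors' deposited values (1.18). The probe at base 4702, which stands for the gene, was at 0.23, 0.27 and 0.26 in the same settings, against 0.38 in the main one. Dim signals near the background limit what can be said of the genes not detected.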
